A study of Homo sapiens with 12 samples.

Results

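The genes described here carry symbols of proteins of the cytosolic and the mitochondrial ribosome, 159 of the 27064 gene symbols counted in both lines. Members were chosen by symbol, with earlier results of these data known. The mitochondrial member MRPS36 carries the symbol KGD4 in RefSeq, and its place in the ribosome was not checked. Symbols of the form RPL or RPS plus a number, with RPLP0, RPLP1, RPLP2 and RPSA, gave 81 cytosolic members, and symbols of the form MRPL or MRPS plus a number gave 78 mitochondrial members. A few subunits with other names (FAU and RACK1 in the cytosol, DAP3 and PTCD3 in the mitochondrion) fall outside this rule and are given as a separate list.

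Poly(A) RNA was sequenced from NCI-H226 (H226), a human pleural mesothelioma line, and ACHN, a human renal carcinoma line. Each line was kept overnight with SWTX-143 at 100 nM or with its solvent DMSO; SWTX-143 binds TEAD transcription factors irreversibly and blocks them. There were 3 libraries in each of the 4 groups: H226 with SWTX-143, H226 with DMSO, ACHN with SWTX-143 and ACHN with DMSO. The submitters call both lines deficient in NF2, an upstream brake of YAP and TEAD. NF2 averaged 0.0312 ± 0.0541 CPM (counts scaled to 1e6 per library) in SWTX-143 and 0 in DMSO in H226, but 94.8 ± 5.27 CPM in SWTX-143 and 111 ± 0.294 CPM in DMSO in ACHN (SD, n = 3 each), so its RNA was present in ACHN.

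A ribosome is built from RNA and many proteins, in a small subunit that reads the messenger RNA and a large subunit that joins amino acids. Cytosolic ribosomal protein messengers begin with a run of pyrimidines, the 5′ TOP motif, through which mTORC1 and LARP1 regulate their translation together. Mitochondrial ribosomal proteins are encoded in the nucleus, made in the cytosol and imported, and the finished particle makes the few respiratory chain subunits that the mitochondrial genome encodes. Their promoters are known for binding sites of the ETS factor GABP, of YY1 and of NRF1, and MYC is known to raise both groups.

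The windows below run from 10 bases before to 20 bases from the RefSeq start (GRCh38.p14, read 5′ to 3′ on the gene's strand) and show 4 cytosolic members and 4 mitochondrial members that recur in the results. Capitals mark a C at the start with the pyrimidines that follow it.

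RPLP0, chr12:120201092-120201121, minus strand: ggcgcgaggcCCTTCTCTCgccaggcgtcc
RPL35, chr9:124861938-124861967, minus strand: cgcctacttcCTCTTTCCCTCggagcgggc
RPS24, chr10:78033853-78033882, plus strand: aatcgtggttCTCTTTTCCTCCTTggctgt
RPL27A, chr11:8682782-8682811, plus strand: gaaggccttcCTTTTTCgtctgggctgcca
MRPL33, chr2:27771709-27771738, plus strand: ccccggaagcagttgttgttggttgggggc
MRPL3, chr3:131502952-131502981, minus strand: tctttccgtcgcagagagcatcggccggcg
MRPL12, chr17:81703357-81703386, plus strand: cggctagagcgtcatttccggctcgaatgc
MRPL17, chr11:6683321-6683350, minus strand: tctaccttccagtttccagttccggcctcc

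A start at C followed by at least 4 pyrimidines was found in 46 of 64 cytosolic members with a RefSeq promoter entry (71.9%), in 6 of 70 mitochondrial members (8.57%) and in 1404 of 27305 genes of all kinds (5.14%).

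Library totals were 9690980 to 11262663 counts in H226 and 10113810 to 11206457 counts in ACHN. Markers differed between the lines in the direction of their labels, some clearly and others weakly. WT1 averaged 134 CPM in SWTX-143 and 127 CPM in DMSO in H226 and 0 in both ACHN groups. PAX8, a renal marker, averaged 1.80 CPM in SWTX-143 and 1.19 CPM in DMSO in H226. In ACHN it averaged 404.7 CPM in SWTX-143 and 392.1 CPM in DMSO. The mesothelial marker LRRN4 averaged 334 and 251 CPM in H226, but also 149 and 177 CPM in ACHN, in the same order of groups. The renal marker LHX1 averaged 14.9 and 8.04 CPM in H226, against 22.2 and 13.7 CPM in ACHN. The leukocyte marker PTPRC had no count in any library. CD14, another leukocyte marker, averaged 2.95 CPM in SWTX-143 and 1.95 CPM in DMSO in H226, against 0.327 and 0.303 CPM in ACHN. The TEAD target CTGF fell with SWTX-143 in both lines (log2 fold change −2.53 ± 0.08, SE, in H226 and −2.39 ± 0.06 in ACHN, adjusted p = 1.8e-29 and 4.8e-35, edgeR's quasi-likelihood test). The labels do not tell whether replicate libraries were grown as separate cultures, so p-values measure the spread between libraries, which may be technical.

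Counts of 155 members allowed a test, 78 cytosolic and 77 mitochondrial. RPL21 had no count in any library, and RPL3L (1 count), RPL10L (2 counts) and MRPS24 (4 counts) were almost unread; RPL3L and RPL10L are known as striated muscle and testis copies. A further group of members was counted far below its neighbours in the ribosome: RPL36A averaged 2.87 CPM in SWTX-143 and 4.46 CPM in DMSO in H226, RPL17 averaged 4.16 and 4.70 CPM, and RPS10 averaged 5.31 and 6.40 CPM, in the same order of groups. RPL3, the parent of RPL3L, had 0.02 ± 0.04 in H226 and −0.02 ± 0.03 in ACHN. RPL36A, RPL17, RPS10 and MRPS24 each share exon bases on the same strand with a read-through symbol (such as RPL36A-HNRNPH2 and RPS10-NUDT3), and all 4 read-through symbols had 0 counts in all libraries. How the authors' counting treated reads that fit more than 1 symbol is not given in the sources used here, its part in these low values was not tested, and the levels of these members are uncertain. The 34 ribosomal protein pseudogene symbols in the tables held 0.104 to 0.127 counts per 100 cytosolic member counts in H226 libraries and 0.157 to 0.191 in ACHN libraries.

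Cytosolic members made up 4.88, 5.00 and 4.81% of all counts in H226 with SWTX-143, against 4.77, 4.93 and 4.73% in H226 with DMSO, and these ranges overlap. Mitochondrial members made up 0.289, 0.300 and 0.285% of counts in H226 with SWTX-143, against 0.313, 0.323 and 0.315% with DMSO, so every treated library lay below every control. For each 100 cytosolic counts there were 5.91, 6.00 and 5.93 mitochondrial counts in H226 with SWTX-143, against 6.56, 6.56 and 6.65 with DMSO. The groups did not overlap, and the exact two-sided permutation p of 0.1 is the smallest that 3 libraries against 3 allow. In ACHN the same ratio was 10.9, 11.2 and 11.1 with SWTX-143, against 12.2, 11.4 and 11.5 with DMSO, again without overlap (exact permutation p = 0.1). The mitochondrial share of ACHN counts was 0.418 ± 0.00702% with SWTX-143 and 0.426 ± 0.00309% with DMSO (SD, n = 3 each, exact permutation p = 0.2). Their cytosolic share was 3.77 ± 0.0807% with SWTX-143 and 3.64 ± 0.105% with DMSO (exact permutation p = 0.3). The lower ratio in ACHN thus went with a higher mean cytosolic share as well as a lower mean mitochondrial share. In bulk RNA, a change in the number of cells of a kind and a change in RNA per cell cannot be told apart.

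**Figure D1:**
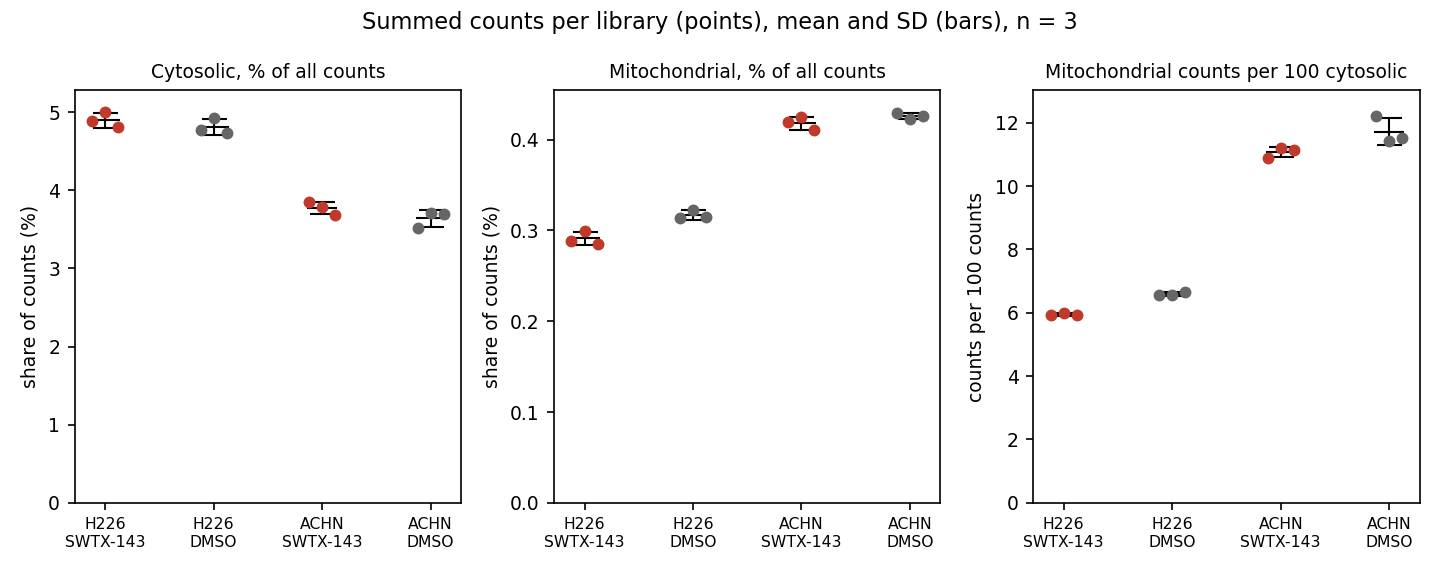
Share of all counts held by cytosolic members (left) and mitochondrial members (middle), in percent, and mitochondrial counts per 100 cytosolic counts (right); points are libraries, red for SWTX-143 and grey for DMSO, and bars are the mean and SD of 3 libraries. In H226 the ratio lies at 5.91 to 6.00 with SWTX-143 and at 6.56 to 6.65 with DMSO, and ACHN lies near 11 to 12 in both groups.

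In H226, 27 of 77 tested mitochondrial members (35.1%) fell with SWTX-143 and 0 rose, where 40.7% of all 13484 tested genes were called, 21.6% lower and 19% higher. Calls are at an adjusted p under 0.05 over all tested genes (edgeR's quasi-likelihood test). Their median log2 fold change was −0.13, against −0.0011 for all tested genes, and 69 of 77 estimates were below 0. The interquartile range of the members was −0.22 to −0.08, and that of all tested genes was −0.17 to 0.19. All 3 treated libraries lay below all 3 controls for 31 mitochondrial members and above them for 1, where the shares over all genes were 24.5% and 23.9%. The count of lower members was 17 with DESeq2 and 19 to 28 when 1 library was left out, and the median was between −0.13 and −0.08 under the other scalings, filters and tools run and between −0.16 and −0.10 without 1 library.

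MRPL33, the counterpart of bacterial L33, was at 37.5, 33.8 and 33.1 CPM with SWTX-143, against 49.7, 50.04 and 52.2 CPM with DMSO. The groups stood well apart, and MRPL33 had the lowest estimate of the mitochondrial members, at −0.55 ± 0.07 (adjusted p = 7.3e-10). MRPL3, whose bacterial counterpart reaches towards the site of peptide bond formation, was at 125, 132 and 122 CPM with SWTX-143, against 158, 176 and 161 CPM with DMSO. It is among the most read of the mitochondrial members, and its fall was −0.40 ± 0.05 (adjusted p = 8.0e-10).

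MRPL12 forms the stalk that recruits translation factors and is also known to bind the mitochondrial RNA polymerase. It was at 50.2, 53.2 and 53.9 CPM with SWTX-143, against 67.8, 73.5 and 68.6 CPM with DMSO (−0.43 ± 0.06, adjusted p = 2.1e-08). MRPL4 and MRPL17 belong to the region of the exit tunnel, through which the new chain leaves. MRPL4 was at 51.4, 62.7 and 56.1 CPM with SWTX-143, against 72.7, 79.9 and 78.9 CPM with DMSO (−0.45 ± 0.06, adjusted p = 3.9e-08). MRPL17 was at 39.4, 40.4 and 36.9 CPM with SWTX-143, against 54.8, 51.6 and 50.1 CPM with DMSO (−0.43 ± 0.06, adjusted p = 1.4e-07). In all 3 genes the groups were separate. MRPL36, the counterpart of the smallest bacterial large subunit protein, was at 11.4, 13.8 and 13.2 CPM with SWTX-143, against 15.9, 18.6 and 17.0 CPM with DMSO (−0.43 ± 0.11, adjusted p = 0.00087). MRPL33, MRPL3, MRPL12, MRPL4, MRPL17 and MRPL36 kept their calls under all 14 alternatives run, the leave-one-out fits included.

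Of the small subunit, MRPS17 was at 15.0, 16.1 and 13.95 CPM with SWTX-143, against 20.8, 22.1 and 18.5 CPM with DMSO (−0.46 ± 0.10, adjusted p = 0.00011). MRPS10, a protein of the small subunit head, was at 48.3, 45.3 and 44.5 CPM with SWTX-143, against 51.0, 54.2 and 57.2 CPM with DMSO (−0.24 ± 0.06, adjusted p = 0.0013). MRPS34, known from patients whose small subunit RNA is unstable without it, was at 33.1, 36.9 and 36.3 CPM with SWTX-143, against 39.6, 43.7 and 43.6 CPM with DMSO (−0.26 ± 0.07, adjusted p = 0.0017). These 3 also kept their calls under all 14 alternatives. The 3 paralogues of bacterial S18 were not called in H226: the estimates were −0.06 ± 0.08 for MRPS18A, −0.13 ± 0.06 for MRPS18B and −0.11 ± 0.08 for MRPS18C. The subunit in which each of these paralogues sits was not checked.

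The mitochondrial subunits were taken from the symbols (MRPL large, MRPS small), and the place of each protein was not checked. Of MRPL members 20 of 49 fell in H226 (40.8%, median −0.15), against 21.6% of all tested genes. Of MRPS members 7 of 28 fell (25%, median −0.11). Members whose number is shared with a bacterial protein (up to MRPL36 and MRPS21) gave 20 of 44 (45.5%), and the higher numbers, which are mostly mitochondrial additions, gave 7 of 33 (21.2%), with medians of −0.13 in both. By members called lower, the MRPS members and the additions were thus near the share over all genes. Their estimates lay below 0 in 28 of 28 MRPS members and 29 of 33 additions, against 50.2% of all tested genes. No test was made of the difference between these classes. Among the additions, MRPL39 was at 19.7, 22.4 and 17.5 CPM with SWTX-143, against 25.4, 27.4 and 21.7 CPM with DMSO (−0.33 ± 0.09, adjusted p = 0.0030), with overlapping groups.

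The 3 mitochondrial members with the highest level per length in H226 include 2 that were called lower. MRPL51 had 167 CPM per kilobase of transcript in DMSO libraries, ahead of MRPL49 at 128 and MRPL33 at 110. On the opposite strand, MRPL51 overlaps exons of NCAPD2 by up to 382 bases, and MRPL49 those of FAU (114) and SYVN1 (93). Whether the counting used strand is not given in the sources used here, and the part of these overlaps in the levels was not tested. MRPL51 was at 85.2, 88.7 and 83.6 CPM with SWTX-143, against 88.3, 95.3 and 93.2 CPM with DMSO, which was not called (−0.11 ± 0.05, adjusted p = 0.077). MRPL49 was at 62.2, 63.1 and 53.0 CPM with SWTX-143, against 63.5, 66.7 and 65.8 CPM with DMSO (−0.15 ± 0.06, adjusted p = 0.047). That call was lost in 10 of 14 alternatives, with adjusted p between 0.023 and 0.40.

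**Figure D2:**
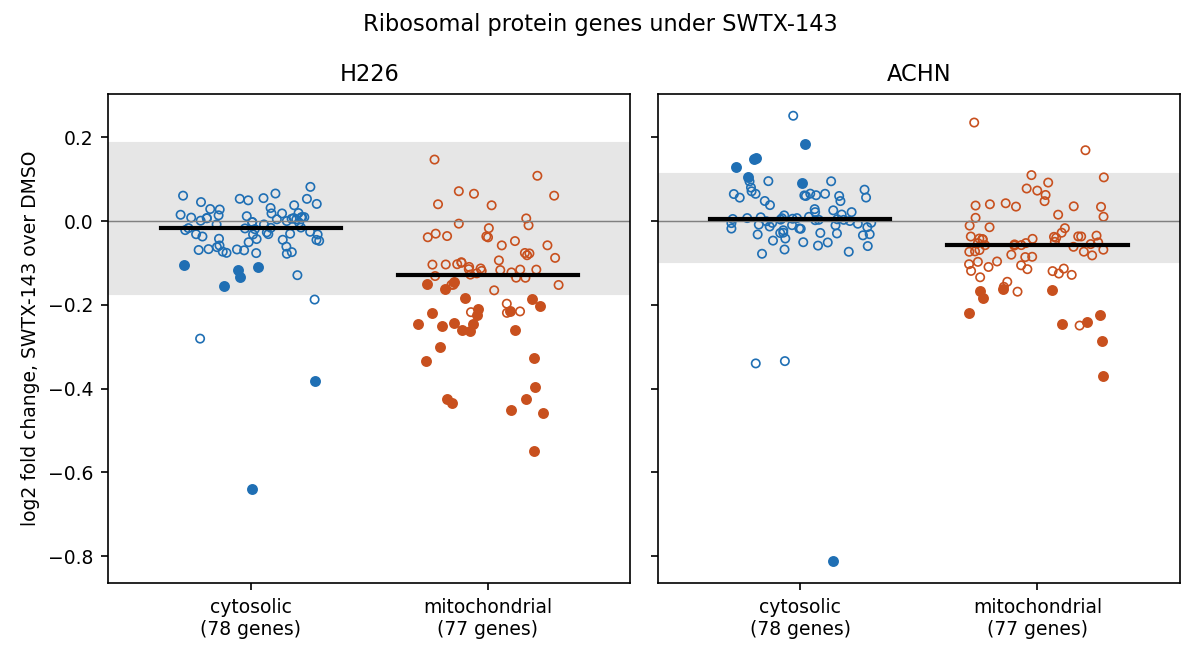
Log2 fold change of SWTX-143 over DMSO for every tested member in H226 (left) and ACHN (right); each point is a gene, filled where the adjusted p is under 0.05, black bars are group medians and the grey band is the interquartile range of all tested genes. The mitochondrial median is −0.13 in H226 and −0.06 in ACHN, and the cytosolic medians are −0.02 and 0.0046.

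In H226 a smaller share of cytosolic members than of all genes was called, and the direction of those that passed the test depended on the scaling. With TMM scaling, 7 of 78 fell (8.97%) and 0 rose, against 21.6% and 19% of all tested genes. With upper-quartile scaling 2 fell and 7 rose, and with library size alone 4 fell and 6 rose; over all genes the split was 2919 lower and 2567 higher with TMM, 2324 and 3283 with upper-quartile scaling, and 2419 and 3110 with library size alone. The median was −0.02 with TMM and between −0.03 and 0.03 under the alternatives, the fits without 1 library included. None of the 7 calls held under every alternative.

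RPL35, a large subunit protein at the exit tunnel, was at 646, 664 and 648 CPM with SWTX-143, against 691, 718 and 727 CPM with DMSO. The groups did not overlap and the fall was −0.13 ± 0.04 (adjusted p = 0.0039), lost only with upper-quartile scaling. RPL39L, a copy of the tunnel protein RPL39 known from testis and tumours, was at 11.9, 10.2 and 10.5 CPM with SWTX-143, against 14.1, 13.9 and 14.3 CPM with DMSO (−0.38 ± 0.11, adjusted p = 0.0047), and its call was lost only with DESeq2. RPL39 itself was at 141, 132 and 134 CPM with SWTX-143, against 145, 138 and 125 CPM with DMSO (−0.02 ± 0.05). RPS26, which lines the messenger RNA exit, had −0.16 ± 0.05 (adjusted p = 0.0092, lost in 4 of 14 alternatives), RPS15 had −0.12 ± 0.04 (adjusted p = 0.019, lost in 8), RPL23A had −0.10 ± 0.04 (adjusted p = 0.035) and RPL27 had −0.11 ± 0.05 (adjusted p = 0.0499). RPL36A, one of the members with few counts, was at 2.27, 3.25 and 3.09 CPM with SWTX-143, against 5.38, 3.81 and 4.18 CPM with DMSO (−0.64 ± 0.20, adjusted p = 0.0094).

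The stalk proteins, which bring elongation factors to the ribosome, did not pass the test in H226. RPLP0 was at 2204, 2269 and 2196 CPM with SWTX-143, against 2133, 2275 and 2157 CPM with DMSO (0.01 ± 0.04). RPLP1, the member with the highest level per length in H226 (4058 CPM per kilobase in DMSO libraries), had 0.01 ± 0.04, and RPLP2 had 0.01 ± 0.05. RPL5 and RPL11, which with 5S RNA can bind the p53 regulator MDM2, had −0.06 ± 0.04 and −0.04 ± 0.04. RPS27 had 0.08 ± 0.04 and its p53-inducible copy RPS27L had 0.04 ± 0.04, and neither was called.

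In ACHN, 10 of 77 mitochondrial members (13.0%) fell and 0 rose, where 17.8% of 13483 tested genes were called, 9.37% lower and 8.43% higher. The median was −0.06, against 0.0013 for all tested genes, and 59 of 77 estimates were below 0. Treated libraries lay below all controls for 15 members and above for 2, where the shares over all genes were 13.8% and 17.9%. With DESeq2, 4 were called, and 6 with library size alone, without ACHN DMSO replicate 3 or without ACHN SWTX-143 replicate 3.

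MRPL36 gave the lowest mitochondrial estimate in ACHN, at 11.3, 11.9 and 10.9 CPM with SWTX-143, against 14.8, 13.9 and 14.8 CPM with DMSO (−0.37 ± 0.10, adjusted p = 0.0083), lost with DESeq2. MRPL12 was at 82.9, 78.9 and 73.3 CPM with SWTX-143, against 92.8, 92.7 and 90.4 CPM with DMSO (−0.25 ± 0.05, adjusted p = 0.00022). MRPS10 was at 78.5, 89.0 and 86.5 CPM with SWTX-143, against 107, 93.3 and 96.4 CPM with DMSO (−0.24 ± 0.05, adjusted p = 0.00054). The groups were separate in all 3 genes. MRPS12, which helps to check the codon against the transfer RNA, was at 36.7, 35.5 and 31.4 CPM with SWTX-143, against 43.8, 39.9 and 41.5 CPM with DMSO (−0.29 ± 0.07, adjusted p = 0.0014). It overlaps exons of SARS2 on the opposite strand, and whether the counting used strand is not given in the sources used here; SARS2 had −0.14 ± 0.10 (adjusted p = 0.37). MRPL32 was at 46.9, 43.5 and 46.8 CPM with SWTX-143, against 52.4, 52.9 and 52.9 CPM with DMSO (−0.22 ± 0.06, adjusted p = 0.0057). MRPL12, MRPL32, MRPS10 and MRPS12 kept their calls under all 14 alternatives. MRPL40 had −0.22 ± 0.08 (adjusted p = 0.038), with overlapping groups, and lost its call in 7 of 14.

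Of the cytosolic members in ACHN, 6 rose (7.69%) and 1 fell (1.28%), against 8.43% and 9.37% of all tested genes, with a median of 0.0046. RPS24, a small subunit protein altered in some patients with Diamond-Blackfan anaemia, was at 681, 689 and 732 CPM with SWTX-143, against 615, 628 and 591 CPM with DMSO (0.18 ± 0.04, adjusted p = 9.8e-05). RPS7 was at 466, 473 and 424 CPM with SWTX-143, against 384, 409 and 422 CPM with DMSO (0.15 ± 0.04, adjusted p = 0.0035). RPL27 was at 430, 409 and 410 CPM with SWTX-143, against 364, 384 and 368 CPM with DMSO (0.15 ± 0.04, adjusted p = 0.0021). In these 3 genes every treated library lay above every control, and the calls held under all 14 alternatives. RPL23A, which docks nascent chain factors at the tunnel exit, had 0.13 ± 0.04 (adjusted p = 0.021), RPL27A had 0.11 ± 0.04 (adjusted p = 0.032) and RPL4 had 0.09 ± 0.03 (adjusted p = 0.042). Each of these lost its call in 4 to 7 of 14 alternatives. RPL36A was the member that fell, with few counts and overlapping groups: 1.10, 0.940 and 2.71 CPM with SWTX-143, against 3.11, 2.97 and 2.26 CPM with DMSO (−0.81 ± 0.28, adjusted p = 0.037). The number of cytosolic members called higher was 3 without ACHN SWTX-143 replicate 1 and 9 without ACHN SWTX-143 replicate 3.

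**Figure D3:**
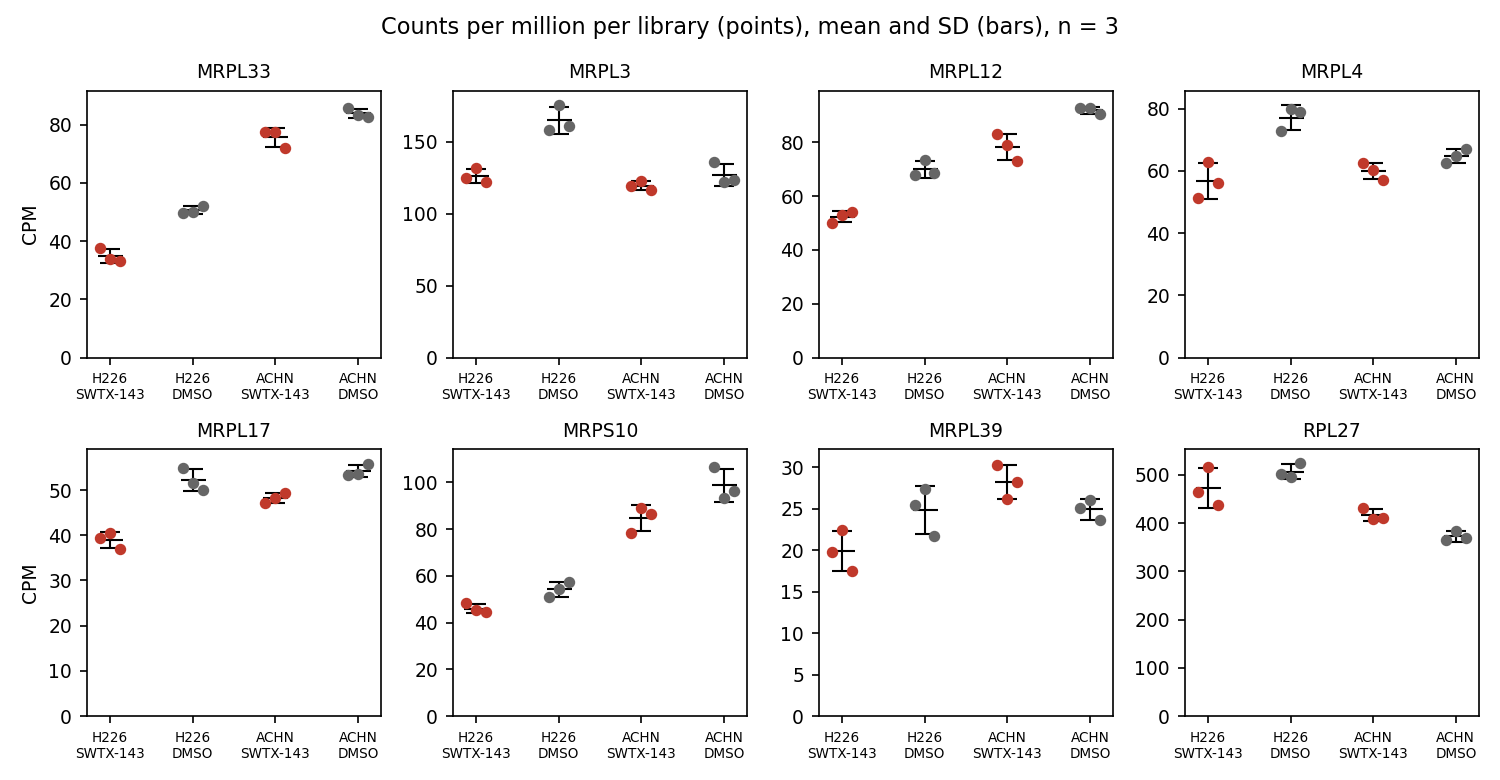
CPM of 8 members in every library, red for SWTX-143 and grey for DMSO, with the mean and SD of 3 libraries per group. MRPL33, MRPL12, MRPL17 and MRPS10 are lower with SWTX-143 in both lines, while MRPL3, MRPL4 and MRPL39 are called lower in H226 alone of the 2 lines and RPL27 is lower in H226 and higher in ACHN.

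Both lines shared 7 lowered mitochondrial members, MRPL12, MRPL17, MRPL33, MRPL36, MRPS9, MRPS10 and MRPS34. They are 25.9% of the members lowered in H226 and 70% of those lowered in ACHN. Over the 12333 genes tested in both lines, 731 (5.93%) were lowered in both, which is 26.1% of those lowered in H226 and 61.1% of those lowered in ACHN, so the members' shares were near those of all genes. MRPS9 was at 29.8, 24.6 and 28.1 CPM with SWTX-143, against 29.7, 32.4 and 33.8 CPM with DMSO, in H226 (−0.22 ± 0.08, adjusted p = 0.018), and at 52.9, 52.5 and 51.0 CPM with SWTX-143, against 59.5, 55.7 and 58.1 CPM with DMSO, in ACHN (−0.17 ± 0.06, adjusted p = 0.034). It lost its call in 6 of 14 alternatives in H226 and in 10 of 14 in ACHN. In ACHN, MRPL17 had −0.18 ± 0.06, MRPL33 had −0.17 ± 0.05 and MRPS34 had −0.16 ± 0.05 (adjusted p = 0.020, 0.015 and 0.015), and lost these calls in 4, 2 and 5 of 14 alternatives in that order. With DESeq2, MRPL12 and MRPS10 alone of the 7 were called in ACHN. RPL36A was the 1 cytosolic member called lower in both, on few counts. Its call was lost in 3 of 13 alternatives in H226 and in 4 of 12 in ACHN, where leaving out 1 library moved the estimate between −1.45 (without ACHN SWTX-143 replicate 3) and −0.56 (without ACHN SWTX-143 replicate 2).

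Of these 7 genes, 5 had a match to a motif that mitochondrial ribosomal genes are known for, and the promoters of 4 of them are shown. The fifth, MRPS10, held 1 ETS core, and MRPL12 and MRPS9 had no match in the same window. How often other members or all genes have such a match in this window was not counted. Each window below runs from 120 bases before to 10 bases from the RefSeq start (GRCh38.p14, gene strand), and capitals mark matches to CCGGAAG (the ETS core bound by GABP), AAGATGGC (the YY1 core), CACGTG (the E-box bound by MYC and MAX) or GCATGCGC (an NRF1 core) on either strand.

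MRPL33, chr2:27771599-27771728, plus strand: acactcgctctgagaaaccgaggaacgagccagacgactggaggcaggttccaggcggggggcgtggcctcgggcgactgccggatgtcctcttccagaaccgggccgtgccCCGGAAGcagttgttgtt
MRPL17, chr11:6683331-6683460, minus strand: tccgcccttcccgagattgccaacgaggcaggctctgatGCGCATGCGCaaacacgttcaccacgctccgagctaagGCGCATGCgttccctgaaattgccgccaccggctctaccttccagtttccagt
MRPS34, chr16:1773125-1773254, minus strand: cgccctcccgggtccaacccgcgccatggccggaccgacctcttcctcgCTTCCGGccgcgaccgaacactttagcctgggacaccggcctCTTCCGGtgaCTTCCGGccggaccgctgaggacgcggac
MRPL36, chr5:1799828-1799957, minus strand: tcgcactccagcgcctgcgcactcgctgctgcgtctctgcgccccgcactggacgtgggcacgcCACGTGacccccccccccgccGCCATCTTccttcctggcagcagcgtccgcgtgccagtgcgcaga

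Over the whole RefSeq window (250 bases before to 50 after the start, both strands), CCGGAAG was present in 42.9% of 70 mitochondrial promoters, 35.9% of 64 cytosolic promoters and 12.2% of all 27305. AAGATGGC was present in 30% of mitochondrial, 9.38% of cytosolic and 3.52% of all promoters. CACGTG was in 14.3%, 6.25% and 8.77%, GCATGCGC in 8.57%, 4.69% and 3.68%, and the TEAD core GGAATG in 15.7%, 7.81% and 16.7%, in the same order. Among mitochondrial members the promoters of those lowered in H226 (25 genes) and of the rest (45 genes) were compared without a test: CCGGAAG was in 40% and 44.4%, GGAATG in 16% and 15.6%, CACGTG in 20% and 11.1%, and AAGATGGC in 20% and 35.6%. These matches describe letters in a window and not binding.

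The response itself differed between the lines for 16 members, all with the lower value in H226. They were 11 mitochondrial members (14.3% of those tested) and 5 cytosolic members (6.41%). Over all 14664 genes tested for this difference 15.6% were called, 9.7% lower in H226 and 5.89% higher. Neither group thus exceeded the share called in either direction, and the cytosolic share was also under the share called lower. The median difference was −0.10 for mitochondrial and −0.02 for cytosolic members, against −0.0114 for all tested genes. Without H226 DMSO replicate 2 these medians were −0.02 for mitochondrial and 0.04 for cytosolic members, and under the other fits they were −0.10 to −0.04 and −0.04 to 0.03, so the sign of the cytosolic median depended on the fit. The number of mitochondrial calls depended on the fit: it was 5 with RLE or upper-quartile scaling, with no filter on low counts or with a filter at 5 CPM, 4 with DESeq2, and between 3 and 13 when 1 library was left out. Over all genes the split was 1423 lower and 863 higher with TMM, but 1045 and 1159 with upper-quartile scaling.

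MRPL39, MRPL33, MRPL3 and RPL27 kept the call of a difference under all 20 alternatives. MRPL39 was lowered in H226, as given above, while in ACHN it was at 30.3, 26.1 and 28.2 CPM with SWTX-143, against 25.1, 26.0 and 23.6 CPM with DMSO (0.17 ± 0.08, not called, adjusted p = 0.14). The difference of the 2 responses was −0.51 ± 0.12 (adjusted p = 0.0013). MRPL33 fell in both lines but by more in H226, with a difference of −0.39 ± 0.08 (adjusted p = 0.00026). MRPL3 was at 120, 123 and 116 CPM with SWTX-143, against 136, 122 and 123 CPM with DMSO, in ACHN (−0.10 ± 0.05, not called), and its difference was −0.30 ± 0.07 (adjusted p = 0.00061). RPL27 was lower in H226, at 464, 516 and 437 CPM with SWTX-143 against 501, 495 and 524 CPM with DMSO, and higher in ACHN. Its difference was −0.26 ± 0.06 (adjusted p = 0.00087), although its own call in H226 was lost in 9 of 14 alternatives.

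MRPL4, RPL23A and RPS7 kept the call in 19 of 20 alternatives. MRPL4 differed by −0.33 ± 0.08 (adjusted p = 0.0022; 0.065 without H226 SWTX-143 replicate 1), RPL23A by −0.24 ± 0.06 (adjusted p = 0.0028; 0.053 without H226 DMSO replicate 1) and RPS7 by −0.22 ± 0.06 (adjusted p = 0.0040; 0.14 without H226 DMSO replicate 2). RPL23A was at 429, 410 and 400 CPM with SWTX-143 against 453, 447 and 422 CPM with DMSO in H226, and at 452, 431 and 410 CPM with SWTX-143 against 391, 363 and 416 CPM with DMSO in ACHN. In both lines its groups overlapped.

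**Figure D4:**
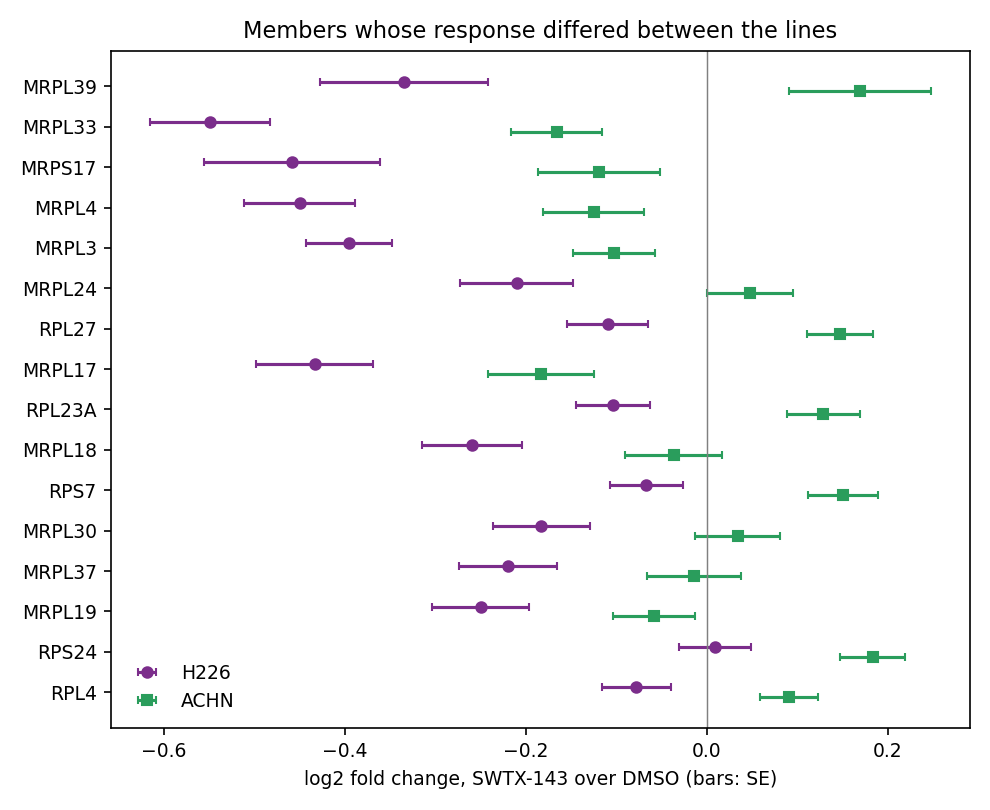
Log2 fold change of SWTX-143 over DMSO in H226 (purple circles) and ACHN (green squares) for the 16 members whose response differed between the lines, ordered by the size of the difference, with SE bars. MRPL39 at the top differs by −0.51, and all 16 lie further left in H226.

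Under SWTX-143 most cytosolic members were higher in H226 than in ACHN and most mitochondrial members were lower. In H226, 62 of 78 cytosolic members were higher than in ACHN and 8 were lower (median 0.63), while 14 of 77 mitochondrial members were higher and 44 were lower (median −0.30). The background was high, since 85.2% of 14664 tested genes differed between the lines, 41.7% higher and 43.5% lower, with a median of −0.02. Libraries of the lines did not overlap, with H226 lower, in 43.4% of all tested genes, and with H226 higher in 41.3%. With library size alone the median of all genes moved to −0.16, that of cytosolic members to 0.49 and that of mitochondrial members to −0.44, and both groups shifted with the whole. Set against the median of all genes, cytosolic members stood 0.65 above it with either scaling, and mitochondrial members 0.28 below it. The summed shares of counts differed in the same directions without the drug. In DMSO libraries cytosolic members averaged 4.81% of counts in H226 and 3.64% in ACHN, and mitochondrial members 0.317% and 0.426%. The comparison is thus between the lines and does not measure a response to SWTX-143.

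RPL10, which completes the large subunit late in its assembly, had the largest gap among cytosolic members. It was at 1686, 1733 and 1710 CPM in H226 with SWTX-143, against 500, 498 and 466 CPM in ACHN with SWTX-143 (1.81 ± 0.04, adjusted p = 3.8e-58). RPL10 overlaps exons of DNASE1L1 on the opposite strand, by up to 1102 bases. Whether the counting used strand is not given in the sources used here, and the part of this overlap in the gap was not tested. RPS27L was at 217, 227 and 224 CPM in H226, against 70.5, 70.1 and 71.0 CPM in ACHN (1.66 ± 0.05, adjusted p = 1.6e-49), while its parent gene RPS27 was at 540, 533 and 548 CPM in H226, against 527, 529 and 490 CPM in ACHN (0.07 ± 0.04, adjusted p = 0.12; −0.09 with an offset for transcript length). RPL28 (1.38 ± 0.05), RPL13A (1.19 ± 0.05) and RPLP1 (1.18 ± 0.04) were also more than 1 log2 unit higher in H226.

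The 3 stalk proteins differed from each other in this comparison. RPLP1 was at 1833, 1907 and 1732 CPM in H226 with SWTX-143, against 826, 807 and 782 CPM in ACHN with SWTX-143, RPLP2 differed by 0.40 ± 0.04, and RPLP0 differed by −0.03 ± 0.04 (adjusted p = 0.42), at 2204, 2269 and 2196 CPM in H226 against 2356, 2328 and 2137 CPM in ACHN. On the per-length scale in DMSO libraries, RPLP1 stood first in H226 at 4058 CPM per kilobase and behind others in ACHN at 1763, after RPLP0 (1981) and RPS2 (1841). Cytosolic members lower in H226 included RPS26 (−0.35 ± 0.04), RPL41 (−0.34 ± 0.04), RPL37A (−0.27 ± 0.05), RPS2 (−0.22 ± 0.04), RPL6 (−0.21 ± 0.04) and RPL5 (−0.16 ± 0.04).

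Among mitochondrial members, MRPS33 was at 14.4, 13.1 and 13.7 CPM in H226 with SWTX-143, against 39.2, 43.7 and 40.6 CPM in ACHN with SWTX-143 (−1.58 ± 0.08, adjusted p = 7.7e-31). MRPS35 was at 60.6, 61.3 and 56.0 CPM in H226, against 159, 171 and 177 CPM in ACHN (−1.51 ± 0.05, adjusted p = 1.6e-43). MRPL55 (−1.36 ± 0.12), MRPS26 (−1.34 ± 0.10), MRPS17 (−1.15 ± 0.08) and MRPL33 (−1.12 ± 0.06) were also lower in H226 by more than 1 log2 unit. In the other direction, MRPS11 was at 61.5, 69.1 and 61.1 CPM in H226, against 32.1, 35.4 and 35.1 CPM in ACHN (0.91 ± 0.07, adjusted p = 2.3e-22), and MRPL21, MRPL54, MRPS6, MRPS25 and MRPS31 were higher by 0.45 to 0.50. Of the S18 paralogues, MRPS18B was lower in H226 (−0.55 ± 0.05), MRPS18C was higher (0.39 ± 0.08) and MRPS18A was not called (−0.11 ± 0.08).

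**Figure D5:**
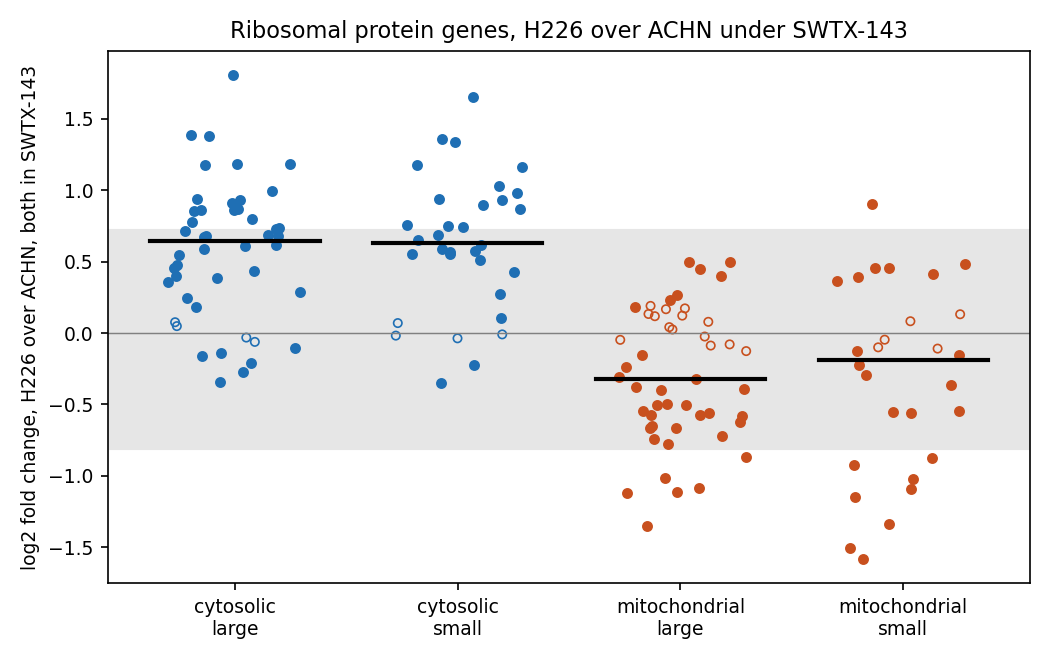
Log2 fold change of H226 over ACHN, both with SWTX-143, for every tested member by ribosome and subunit; filled points have an adjusted p under 0.05, black bars are medians and the grey band is the interquartile range of all tested genes. Both cytosolic subunits have medians near 0.63 to 0.65. The mitochondrial large and small subunits, taken from the symbols MRPL and MRPS, have medians of −0.32 and −0.19.

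Other genes of ribosome supply were read from 7 lists, which were chosen with earlier results of these data known. The shares below therefore describe the lists and are not an independent test. Of all tested genes, 21.6% were lower and 19% higher in H226, and 9.37% lower and 8.43% higher in ACHN. Of 5 mitochondrial ribosomal proteins outside the symbol rule, 3 fell in H226 (60%; PTCD3 −0.28 ± 0.05, adjusted p = 1.9e-05, GADD45GIP1 −0.21 ± 0.06 and AURKAIP1 −0.18 ± 0.06) and 1 in ACHN (20%; PTCD3, −0.13 ± 0.05, adjusted p = 0.038). The call of AURKAIP1 was lost in 6 of 14 alternatives and that of PTCD3 in ACHN in 9 of 14. Of 7 cytosolic proteins outside the rule 2 fell in H226 (28.6%), both copies of standard proteins (RPL7L1 −0.24 ± 0.05 and RPL26L1 −0.27 ± 0.07), and 1 in ACHN (14.3%; RPL7L1, −0.12 ± 0.04, adjusted p = 0.036, lost in 8 of 14). FAU and RACK1 were not called in either line.

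Factors of mitochondrial translation and ribosome assembly gave 15 lower and 2 higher of 34 in H226 (44.1% and 5.88%, median −0.18), against 21.6% and 19% of all genes. In ACHN they gave 5 lower and 0 higher (14.7% lower, median −0.07), against 9.37% and 8.43%. MALSU1, which guards the large subunit until it is complete, was at 41.6, 42.8 and 38.4 CPM with SWTX-143, against 56.7, 58.5 and 53.5 CPM with DMSO, in H226 (−0.47 ± 0.06, adjusted p = 1.4e-08), and at 51.0, 46.7 and 45.3 CPM with SWTX-143, against 61.0, 60.9 and 58.5 CPM with DMSO, in ACHN (−0.35 ± 0.06, adjusted p = 7.6e-06). DHX30, an RNA helicase of mitochondrial RNA granules, fell by 0.43 ± 0.05 on the log2 scale in H226 and by 0.15 ± 0.05 in ACHN (adjusted p = 1.3e-09 and 0.033, the ACHN call lost in 9 of 14 alternatives). MRM2, a methyltransferase of the large ribosomal RNA, had −0.39 ± 0.06 in H226 (adjusted p = 2.3e-07), and GFM1, the elongation factor that moves the ribosome along, had −0.35 ± 0.05 (adjusted p = 2.9e-07).

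Chaperones and handlers of ribosomal proteins gave 11 lower and 0 higher of 16 in H226 (68.8% lower, median −0.18), where 21.6% of all genes fell, and 4 lower and 0 higher in ACHN (25% lower), where 9.37% fell. GRWD1, known for binding RPL3, was at 28.0, 32.7 and 32.9 CPM with SWTX-143, against 45.2, 44.6 and 42.5 CPM with DMSO, in H226 (−0.51 ± 0.07). IPO7, an import receptor that carries ribosomal proteins into the nucleus, had −0.27 ± 0.04 in H226 (adjusted p = 1.2e-07) and −0.05 ± 0.04 in ACHN, and this difference was called under all 20 alternatives (−0.23, adjusted p = 0.0022). HUWE1, an E3 ligase known to act on unassembled ribosomal proteins, had −0.25 ± 0.05 in ACHN (adjusted p = 0.00056) and 0.02 ± 0.20 in H226, where it was not called. ZNF598, the sensor of collided ribosomes, fell in both lines (−0.30 ± 0.06 and −0.17 ± 0.05, adjusted p = 4.6e-05 and 0.014), with the ACHN call lost in 4 of 14 alternatives.

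Among 16 other TOP messengers, which share the pyrimidine start with the cytosolic members, 2 fell and 3 rose in H226 (12.5% and 18.8%, against 21.6% and 19% of all genes; median 0.0048). In ACHN 2 fell and 2 rose (12.5% each, against 9.37% and 8.43%; median 0.0061), so the rises in H226 were at the share over all genes. TPT1 was at 2716, 2656 and 2441 CPM with SWTX-143, against 2376, 2365 and 2277 CPM with DMSO, in H226 (0.15 ± 0.04, adjusted p = 0.0016), and rose by 0.12 ± 0.03 in ACHN (adjusted p = 0.0053). EEF1A1, the factor that delivers transfer RNA, rose by 0.13 ± 0.04 in H226 and by 0.10 ± 0.03 in ACHN (adjusted p = 0.0041 and 0.028, the ACHN call lost in 5 of 14 alternatives). NPM1, a nucleolar chaperone, fell in both (−0.21 ± 0.04 and −0.16 ± 0.03, adjusted p = 8.5e-06 and 0.00025). Of 9 noncoding hosts of small nucleolar RNAs, also TOP transcripts, 4 fell in each line (44.4%, against 21.6% of all genes in H226 and 9.37% in ACHN) and 0 rose. SNHG1 was at 50.8, 51.7 and 55.1 CPM with SWTX-143, against 91.8, 79.2 and 76.6 CPM with DMSO, in H226 (−0.66 ± 0.06, adjusted p = 2.4e-12), and had −0.37 ± 0.07 in ACHN (adjusted p = 4.4e-05).

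Regulators of these genes gave 8 lower and 2 higher of 16 in H226 (50% and 12.5%, against 21.6% and 19% of all genes) and 3 lower and 0 higher of 17 in ACHN (17.6% lower, against 9.37%). PPRC1, a coactivator of NRF1 and GABP related to PGC-1α, was at 46.3, 51.1 and 50.1 CPM with SWTX-143, against 78.9, 82.3 and 88.8 CPM with DMSO, in H226 (−0.77 ± 0.06, adjusted p = 2.4e-16), and at 113 CPM in all 3 libraries with SWTX-143, against 128, 127 and 126 CPM with DMSO, in ACHN (−0.18 ± 0.04, adjusted p = 0.0013). MYC was at 89.3, 94.0 and 86.8 CPM with SWTX-143, against 117, 127 and 122 CPM with DMSO, in H226 (−0.45 ± 0.05, adjusted p = 1.5e-10), and had −0.06 ± 0.04 in ACHN (adjusted p = 0.41). Both responses differed between the lines under all 20 alternatives (PPRC1 −0.59, adjusted p = 1.3e-09; MYC −0.39, adjusted p = 8.7e-06). GABPB1 fell in H226 (−0.47 ± 0.09, adjusted p = 1.9e-05), while NRF1 and YY1 had −0.14 and −0.03 and were not called. LARP1 and LARP4, RNA-binding proteins that act on ribosomal protein messengers, were called lower in both lines (LARP1 −0.19 ± 0.04 and −0.12 ± 0.04; LARP4 −0.24 ± 0.05 and −0.23 ± 0.04), but the call of LARP1 in ACHN was lost in 7 of 14 alternatives. The part of any of these genes in the levels of the members was not tested.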

How the data were processed

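RNA-seq counts per gene were analysed for 12 libraries (100-base paired reads per the labels' protocols). The authors deposited raw counts in 1 table per line; adapter trimming with cutadapt, FastQC and alignment with STAR 2.6.1d to hg19 (GRCh37) are per the submitters' processing notes. The counting program, its annotation and its handling of strand and shared reads are, in the sources used here, not given. Totals of 9690980 to 11262663 counts per library set the precision.

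Each line was fitted on its own 6 libraries, and the difference of responses and the line comparison on all 12, in edgeR 4.0.16 (R 4.3.3): filterByExpr, TMM scaling, quasi-likelihood F test, Benjamini-Hochberg adjustment over all tested genes, threshold 0.05. CPM use the TMM library sizes of all 12. The common biological coefficient of variation was 3.98% in H226 and 3.23% in ACHN. On simulated counts, the H226 fit (13269 genes) recovered 48.5% of changes of 0.25 and 79.8% of changes of 0.5 log2 units, the ACHN fit (13408 genes) 51% and 89.8%, and the difference (14447 genes) 18% and 69%. Few genes were changed in the simulation (97 by 0.25 and 99 by 0.5 log2 units in H226), drawn from 5 CPM up. In the H226 data 40.7% of tested genes were called. The recovered shares therefore do not give the sensitivity for the members. Alternatives were RLE, upper-quartile and library size scaling, no filter, a mean of at least 5 CPM, DESeq2 1.42.0, a replicate block, an offset for transcript length (GENCODE 29) and leaving out each library. Replicates of a group differed by more than counting noise (chi-square per degree of freedom 1.34 to 3.27 over 12 pairs). Promoter sequences are from RefSeq (GRCh38.p14; 134 members matched); no coordinate of the authors' build was used.

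Members and lists were chosen with earlier results of these data known. Named are up to 6 called members with the largest rise and fall per group and comparison (mean of at least 5 CPM), paralogues and their parents, stalk proteins, RPL5, RPL11, the 3 with the highest CPM per kilobase, and up to 4 per list and line with the smallest p, not all of which are printed (some items are not reported here); the remaining names (among them MRPS9, MRPS34, RPL17, RPS10, FAU, NRF1 and YY1, and further members whose response differed between lines) were chosen after their values were seen.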

Additional observations from a re-analysis of the deposited data

Results flagged for a closer look

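For 16 members the response to SWTX-143 differed between the lines (adjusted p under 0.05 for the difference of the log2 fold changes, H226 minus ACHN, edgeR's quasi-likelihood test on 12 libraries). They were 14.3% of the mitochondrial and 6.41% of the cytosolic members tested, all lower in H226. Over all 14664 tested genes 15.6% were called, 9.7% lower in H226 and 5.89% higher. The mitochondrial differences were −0.51 for MRPL39, −0.39 for MRPL33, −0.35 for MRPS17, −0.33 for MRPL4, −0.30 for MRPL3, −0.26 for MRPL24, −0.26 for MRPL17, −0.23 for MRPL18, −0.22 for MRPL30, −0.21 for MRPL37 and −0.20 for MRPL19. The cytosolic differences were −0.26 for RPL27, −0.24 for RPL23A, −0.22 for RPS7, −0.18 for RPS24 and −0.18 for RPL4. MRPL17, MRPL18, MRPL19, MRPL30, MRPL37 and MRPS17 held the call in 3 to 7 of 20 alternatives, RPS24 in 8, RPL4 in 11 and MRPL24 in 14.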

How the results depend on the processing

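Counts of members called lower or higher depended on the fit; causes were not tested. In H226, cytosolic members called lower and higher numbered 2 and 7 with upper-quartile scaling and 4 and 6 with library size alone, and 3 and 1 at a mean of at least 5 CPM; DESeq2 called 2 lower and the length offset 1 higher. Of mitochondrial members, 1 was called higher with upper-quartile scaling or library size alone, and DESeq2 called 17 lower. In ACHN, mitochondrial members called lower numbered 6 with library size alone and 4 with DESeq2, and cytosolic members called lower 0 with DESeq2 or at 5 CPM. For the difference, mitochondrial members called lower numbered 5 with RLE, upper-quartile scaling, no filter or 5 CPM and 4 with DESeq2; cytosolic ones 3 with upper-quartile scaling, no filter or 5 CPM, with 2 called higher at 5 CPM (over all genes 1021 lower and 1236 higher). In ACHN the split over all genes was 1264 lower and 1137 higher, against 1028 and 1450 with upper-quartile scaling and 977 and 1537 with library size alone.

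For H226 against ACHN under SWTX-143, library size alone gave 13 cytosolic members lower and medians of 0.49 (cytosolic) and −0.44 (mitochondrial). It reversed RPS24 (−0.0355, adjusted p = 0.37) and IPO7 (−0.10, adjusted p = 0.014), and the length offset reversed RPS27 (−0.0876, adjusted p = 0.041).

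Leaving out 1 library gave, in H226, 4 to 5 cytosolic members lower and 0 to 2 higher, and 19 to 28 mitochondrial members lower and 0 to 1 higher; in ACHN, 0 to 3 cytosolic lower, 3 to 9 cytosolic higher and 6 to 10 mitochondrial lower. The difference gave 2 to 6 cytosolic lower, 0 to 2 cytosolic higher, 3 to 13 mitochondrial lower and 0 to 1 mitochondrial higher. The line comparison gave 5 to 9 cytosolic lower, with medians of 0.60 to 0.71 (cytosolic) and −0.30 to −0.22 (mitochondrial).

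Deviations of same-numbered libraries had r of −0.058 to 0.172 in H226 and −0.165 to −0.061 in ACHN. Libraries with unlike numbers had r of −0.268 to 0.167 in H226 and −0.053 to 0.163 in ACHN. Deviations from the mean of only 3 libraries cannot tell whether the numbers pair them. With a replicate block, cytosolic and mitochondrial members called lower numbered 7 and 29 in H226, 1 and 9 in ACHN, and 5 and 12 for the difference; 4 cytosolic members rose in ACHN.

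Of 7255 recomputed single-gene values, 6697 kept their side of the threshold, 457 lost their call, 98 gained one and 3 reversed. Reversed values changed sign and were called in the main fit, the alternative or both. Values that changed sign without a call in either fit are counted among the 6697. RPL36A, at under 6 CPM in every library, had the largest SE of the members named; the part of depth in this was not tested.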
